A study of Mus musculus with 4 samples.

Results

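The genes described here encode the translation initiation factors eIF1 to eIF6 of the mouse. They were taken as every row of the deposited ribosome profiling table whose gene name begins with Eif and a digit from 1 to 6, the eIF4E-binding proteins included, while the eIF2 kinases and Eif2s3y, the Y-linked partner of Eif2s3x, were left out. This gave 50 of the 16442 genes in the table: 5 under eIF1, 5 under eIF2, 5 under eIF2B, 15 under eIF3, 15 under eIF4, 4 under eIF5 and 1 under eIF6. Among them are Eif3s6-ps2 and Eif4a-ps4, which carry pseudogene names. The rule used gene names and no measured value, but it was set with earlier results of these data known.

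The cells were leukaemia stem cells, the leukaemia-propagating cells of the bone marrow, from C57BL/6 mice with leukaemia. There were 2 libraries from WT mice and 2 from mice labelled KO for Rreb1, a gene for a DNA-binding zinc finger protein. The leukaemia model, the design of the knockout allele, the age of the mice and the number of animals behind each library are not given here. KO replicate 2 has Rreb2-KO as its genotype label, although its title and the series design place it with the Rreb1 knockouts. Micrococcal nuclease (10 µg/ml, 30 minutes) left ribosome-protected fragments, which were cut from a gel at 25 to 40 nucleotides, and part of the lysate was kept undigested as input RNA. Footprints and input RNA are given as RPKM, read counts scaled to gene length and to the assigned reads of the library, and translational efficiency (TE) is the deposited ratio of the 2, each with 1 added.

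Initiation is the step at which a ribosome is placed on the start codon of an mRNA. eIF2 brings the initiator tRNA to the small subunit and is recharged with GTP by eIF2B, eIF3 is the large scaffold of the small-subunit complex, and eIF1 and eIF1A hold that complex in a state that can scan. The eIF4 group binds the cap and unwinds the mRNA, eIF5 and eIF5B act when the start codon is found and the subunits join, and eIF6 keeps free large subunits apart from small ones. Some of these mRNAs belong to the terminal oligopyrimidine (TOP) class, which starts with a C and a run of pyrimidines and whose translation follows mTOR activity.

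Because that class is defined by the first bases of the mRNA, the annotated starts of 4 members are shown: those of the 2 members that carry such a run, and those of Eif3k, whose RNA rose together with that of Eif3f, and of Eif4b, a known TOP mRNA. The sequences are from RefSeq on GRCm38.p6, each with the 5 bases before the annotated start and the 20 bases from it, on the strand of the gene. Capitals mark the C at the start and the pyrimidines that follow it without a break.
Eif3f (chr7:108934410-108934434, plus strand): gctctCTCTCTTTCTCggcaagatg
Eif2s3x (chrX:94212632-94212656, minus strand): ttttcCTTTTCTCTCCgagcaagat
Eif3k (chr7:28981869-28981893, minus strand): gcgctggtgctgaaagcgcctttcc
Eif4b (chr15:102073768-102073792, plus strand): tcggacgccgcgccaccccctcgcg
A C followed by at least 4 bases that are each C or T stood at the start in 2 of the 38 members with an entry, 5.26%, against 3.01% of the 27025 genes with an entry and 2.51% of their 32851 annotated starts. Eif3f and Eif2s3x both had a run of 11 pyrimidines. No such run stood at the annotated start of Eif3k or Eif4b, which says only that these letters are not in this window.

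Values of the 4 libraries are given below in the order WT replicate 1, WT replicate 2, KO replicate 1, KO replicate 2. The libraries held 878068, 656249, 364087 and 274183 assigned footprint reads, a 3.2-fold range, so that a single read on a gene of 1 kilobase is worth 1.14, 1.52, 2.75 and 3.65 RPKM. RNA of the targeted gene went against the labels: Rreb1 had 3.33, 3.25, 6.10 and 6.93 RPKM of RNA, higher in both KO libraries (log2 difference 0.81 ± 0.09 (SE), limma adjusted p = 2.82e-04). Its footprints were 14.1, 12.8, 12.9 and 8.19 RPKM (-0.36 ± 0.39, adjusted p = 0.672) and its TE was 3.48, 3.25, 1.95 and 1.16, lower in both KO libraries (-1.16 ± 0.39, adjusted p = 0.343). Where the deletion lies is not given, and reads outside it would check nothing, so the groups are called WT and KO-labelled. RNA of several lists of cell type markers separated the groups. The 10 markers of mature myeloid cells summed to 12859, 12338, 3107 and 3559 RPKM, with 7 of 10 lower and 1 higher in both KO-labelled libraries. The sums were 35.9, 34.0, 497 and 484 RPKM for 6 mast cell and basophil markers, of which 5 were higher in both KO-labelled libraries, and 18.6, 18.5, 436 and 366 RPKM for 8 T and NK cell markers, of which 6 were. They were 84.6, 76.4, 422 and 515 RPKM for 8 erythroid markers, of which 6 were higher and 1 lower in both KO-labelled libraries. For 4 stromal and endothelial markers they were 11.7, 12.1, 72.4 and 79.7 RPKM, with 3 higher in both KO-labelled libraries. The 10 stem and progenitor markers summed to 819, 822, 679 and 637 RPKM and none was at 0 in any library. Of these, 5 were higher and 4 lower in both KO-labelled libraries. The 2 B cell markers in the table summed to 43.0, 40.5, 28.3 and 26.4 RPKM, with 1 higher and 1 lower in both KO-labelled libraries. No marker was at 0 in RNA in all 4 libraries. The part of these cell markers in the RNA differences below was not tested, and in bulk libraries fewer cells of a type and less RNA per cell cannot be told apart.

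RNA of the initiation factor genes differed between the groups by small amounts and in both directions. The tests covered the 6384 genes that reached 20 CPM, footprint reads scaled to the assigned reads alone, in 2 libraries or more, and 37 of the 50 members passed this filter on footprints, each of them with at least 1 library of either group past it. In RNA, 21 of the 37 were past an adjusted p of 0.05 in limma, 13 with more and 8 with less RNA under the KO label. That is 56.8% of the tested members, 35.1% higher and 21.6% lower, beside 60.8% of all tested genes, 33.1% higher and 27.7% lower. The median log2 difference was 0.064 over the members and 0.043 over all tested genes. The members ranged from -0.57 (Eif3b) to 0.57 (Eif3f), and the groups did not overlap in 28 of them, 75.7%, beside 82.0% of all tested genes. Removing a WT library lowered the count of members called from 21 to 9 without WT replicate 1 (24.3%, beside 45.0% of all tested genes) and to 8 without WT replicate 2 (21.6%, beside 41.9%). Without KO replicate 1 it was 20 (54.1%, beside 61.3%) and without KO replicate 2 it was 19 (51.4%, beside 57.6%). Of the 21, 17 were also called after quantile normalization, which ended the calls of Eif1b, Eif3g, Eif3h and Eif4g1 (adjusted p = 0.0524 to 0.0651) and added Eif3i and Eif6. Of the same 21, 10 were called with no filter on footprints and 16 in a fit of genes chosen by their RNA. The RNA calls of Eif3f, Eif3k, Eif4enif1 and Eif4h held without each library in turn.

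In footprints no member was called: 0 of 37 in limma, where 1.05% of all tested genes were, and 0 of 37 at an unadjusted p under 0.05, where 18.2% were. The groups did not overlap in footprints in 14 of 37, 37.8%, beside 52.5% of all tested genes. The voom fit on recovered whole reads called 0 of 37 as well. The median difference was -0.047 on the log2 scale beside -0.13 for all tested genes, and centring each library on its median or quantile normalization turned the members' median to 0.01 and 0.09. In TE, 0 of 37 members and 0% of all tested genes were called, and 0 members against 13.0% of all genes had an unadjusted p under 0.05. The median TE difference was -0.15 for the members and for all tested genes, and centring each library brought that of the members to -0.02. On simulated footprints of the same 6384 genes, 49% of 4-fold changes and 94% of 16-fold changes were called. Smaller changes, such as those called in RNA, were not simulated. The simulated reads were drawn with a single setting of spread for all genes and with no library high on its own, unlike the real footprints. These shares may therefore be too high for the real footprints.

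**Figure D1:**
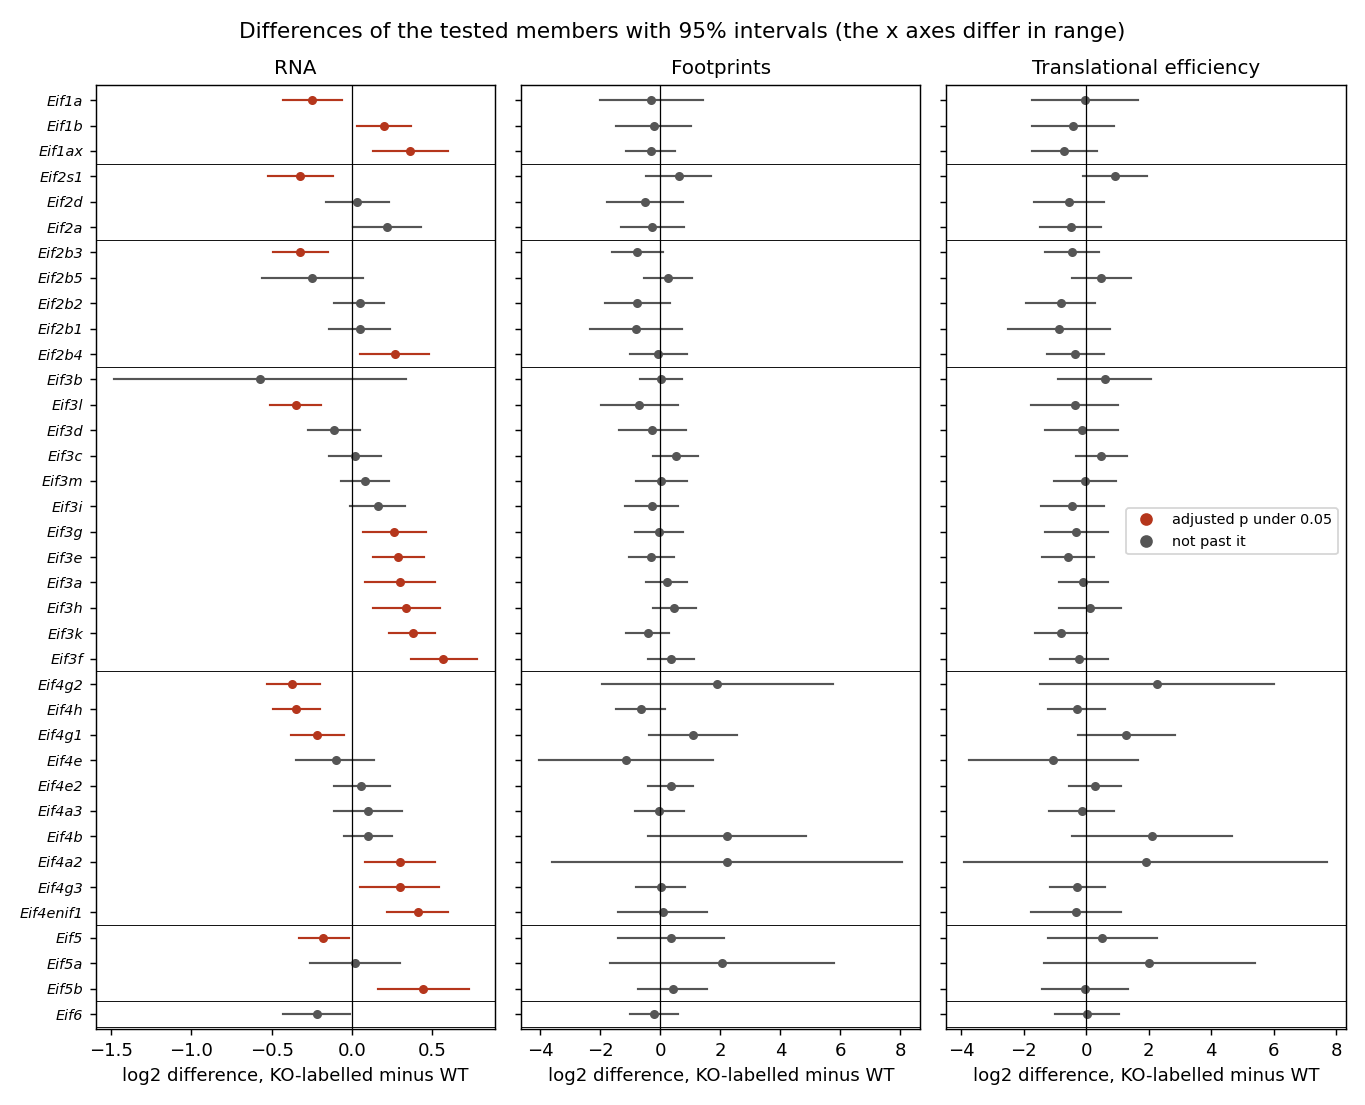
Log2 difference, KO-labelled minus WT, of the 37 tested members in RNA, footprints and TE, with limma's 95% interval as a line, grouped by factor and ordered by the RNA difference. Red marks an adjusted p under 0.05, which 21 members reached in RNA and 0 in footprints or TE, and the x axis of RNA spans a narrower range than the other panels.

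The first factors, eIF1 and eIF1A, showed RNA changes in both directions. Eif1ax, an X-linked gene for eIF1A, had RNA of 20.2, 20.7, 29.5 and 24.1 RPKM and footprints of 329.5, 265, 197 and 279 RPKM. Eif1a, a further gene for eIF1A, had RNA of 26.2, 29.6, 23.4 and 23.3 RPKM and footprints of 84.7, 102, 39.7 and 143 RPKM. Eif1b, a close relative of Eif1, had RNA of 94.5, 88.9, 110.0 and 101 RPKM and footprints of 179, 387, 280.3 and 181 RPKM. In footprints the groups overlapped for all 3 genes. RNA of Eif1ax rose by 0.36 ± 0.10 on the log2 scale (SE, adjusted p = 0.0158) and that of Eif1b by 0.20 ± 0.07 (adjusted p = 0.0429), while that of Eif1a fell by 0.25 ± 0.08 (adjusted p = 0.0285). Leaving out a WT library ended the calls of Eif1ax (adjusted p = 0.0723 and 0.0598) and Eif1b (0.128 and 0.317), leaving out KO replicate 1 that of Eif1b (0.0839), and leaving out WT replicate 2 or either KO library that of Eif1a (0.264, 0.0622 and 0.0663). Eif1ax had the highest TE of the members by its median, 11.7, with 15.6, 12.2, 6.49 and 11.2 in the libraries.

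Eif1 itself, the gene for the factor that guards start codon choice, was not tested, because its footprints were few outside KO replicate 1. It had 2, 10, 277 and 2 reads, or 4.48, 30.0, 1498 and 14.4 RPKM, against RNA of 256, 270.1, 215 and 180.4 RPKM. The RNA of the untested members was followed in a fit of the 12194 genes that reached 1 RPKM of RNA in 2 libraries or more, of which 53.3% were called. In that fit RNA of Eif1 fell by 0.42 ± 0.10 (SE, adjusted p = 0.0204). Of the 13 untested members 12 were in it. Eif2s2 and Eif4e3 were called higher and Eif1 and Eif4ebp1 lower, and Eif3s6-ps2 and Eif5a2, which entered it through the KO-labelled libraries where they are high, had to differ and are not counted. Eif1ad, which carries an eIF1A domain, had 10.8 to 35.8 RPKM of footprints and 42.8 to 50.2 RPKM of RNA, with an adjusted p of 0.0530.

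The genes Eif2s1, Eif2s2 and Eif2s3x, for the 3 subunits of eIF2, were far apart in their footprints. Eif2s1 encodes the alpha subunit, whose phosphorylation under stress slows initiation. Its footprints were 49.4, 77.4, 122 and 73.3 RPKM and its RNA was 57.4, 60.7, 50.7 and 43.7 RPKM, lower in both KO-labelled libraries. The RNA fell by 0.32 ± 0.08 (SE, adjusted p = 0.0139, and 0.107 without WT replicate 2), while the footprint difference was 0.61 with an interval of -0.47 to 1.68. Eif2s2, the beta subunit, had footprints of 24.1, 27.6, 24.9 and 33.1 RPKM and RNA of 38.4, 37.6, 44.0 and 48.1 RPKM. It held 7, 6, 3 and 3 recovered reads and was not in the footprint test. These reads may be too small by a common factor, and the filter was applied to them. Its place below the filter is therefore uncertain. Its RNA rose by 0.27 ± 0.07 in the fit of genes by RNA (adjusted p = 0.0241). Eif2s3x, the gamma subunit that binds GTP and the initiator tRNA, had almost no footprints, 0.793, 0, 0 and 0 RPKM, on RNA of 6.05, 5.56, 5.27 and 5.94 RPKM. Eif2s3y, its near-identical Y-linked partner, had footprints of 61.9, 68.9, 25.2 and 41.2 RPKM and RNA of 21.9, 21.5, 26.1 and 26.3 RPKM. How reads that match both copies were counted is not given, so the split between them is uncertain.

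Eif2a and Eif2d, which bind initiator tRNA but are no subunits of eIF2, were among the lowest tested members. Eif2a had footprints of 25.5, 42.8, 23.6 and 31.4 RPKM and RNA of 7.07, 8.06, 9.20 and 8.74 RPKM. Eif2d had footprints of 14.0, 19.5, 16.1 and 7.78 RPKM, the last from 4 reads, and RNA of 7.94, 8.21, 8.64 and 7.95 RPKM. Neither passed the test, with RNA differences of 0.22 (adjusted p = 0.0667) and 0.03 (adjusted p = 0.742).

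The 5 subunits of eIF2B, the exchange factor of eIF2, kept a summed RNA of 142, 136, 144 and 133 RPKM and summed footprints of 222, 279, 169 and 179.7 RPKM. Both KO-labelled sums of footprints lay below both WT sums, but 0 of the 5 genes were called in footprints. RNA of Eif2b3, the gamma subunit, was 11.3, 11.4, 8.83 and 8.95 RPKM and fell by 0.32 ± 0.07 (SE, adjusted p = 0.00789), and its footprints were 40.5, 55.3, 27.7 and 26.9 RPKM, with a difference of -0.77 and an interval of -1.62 to 0.08. RNA of Eif2b4, the delta subunit, was 20.2, 23.0, 27.8 and 24.6 RPKM and rose by 0.27 ± 0.09 (adjusted p = 0.0396), with footprints of 22.5, 35.1, 27.1 and 26.0 RPKM. These opposite RNA differences stood in the same complex. The calls were lost without WT replicate 1 (adjusted p = 0.0588 for Eif2b3 and 0.263 for Eif2b4), without WT replicate 2 for Eif2b3 (0.0663) and without KO replicate 1 for Eif2b4 (0.154). Eif2b1, the alpha subunit, had the lowest footprint difference of the group, -0.81 ± 0.59, from 48.8, 94.7, 24.0 and 60.6 RPKM, and its groups overlapped. Eif2b5, the catalytic subunit, had the highest, 0.24 ± 0.31, from 28.1, 26.4, 30.1 and 34.9 RPKM, the last in 21 reads, on RNA of 35.7, 26.2, 26.5 and 24.8 RPKM. Eif2b2, the beta subunit, had footprints of 31.2 to 82.2 RPKM and was not called.

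In the eIF3 complex the RNA of 6 of the 12 tested subunits rose and that of 1 fell, which is 50% and 8.33% beside 33.1% and 27.7% of all tested genes. Without WT replicate 1 or without WT replicate 2 the rise was called in 2 of the 12. The subunits that rose were Eif3a, Eif3e, Eif3f, Eif3g, Eif3h and Eif3k, by 0.26 to 0.57 on the log2 scale, and the median RNA difference over the 12 was 0.21. Quantile normalization gave 5 higher, 1 lower and a median of 0.18, with the calls of Eif3g and Eif3h lost (adjusted p = 0.0595 and 0.0570) and Eif3i called (0.0401), and centring on the library median gave 6, 1 and 0.23. Eif3f had RNA of 51.4, 51.9, 71.2 and 83.9 RPKM, with both KO-labelled libraries above both WT libraries (log2 difference 0.57 ± 0.09 (SE), adjusted p = 0.00109, and 0.00923 and 0.0093 without a WT library). RNA of Eif3k was 83.5, 82.8, 109 and 107 RPKM (0.38 ± 0.06, adjusted p = 0.00154). The RNA that fell was that of Eif3l, 60.8, 65.8, 50.2 and 48.6 RPKM (-0.35 ± 0.07, adjusted p = 0.00381, and 0.0622 without WT replicate 2). The calls of Eif3a, Eif3e, Eif3g and Eif3h were lost without either WT library, with adjusted p of 0.0595 to 0.149, and that of Eif3a also without KO replicate 2 (0.0576). RNA of Eif3b, Eif3c, Eif3d, Eif3i and Eif3m was not called, with adjusted p of 0.0931 (Eif3i) to 0.813 (Eif3c).

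Footprints of the same subunits were not called in either direction, and their median difference was -0.018. Eif3f had footprints of 117, 158, 183 and 162 RPKM, with both KO-labelled libraries above both WT libraries by little, and a difference of 0.34 with an interval of -0.43 to 1.11. For Eif3k they were 354, 439, 316 and 269 RPKM, lower in both KO-labelled libraries while the RNA was higher, and the TE difference was -0.81 with an interval of -1.65 to 0.03 (limma adjusted p = 0.391). The p-value in the authors' deposited table, which matched a one-sided unadjusted test on TE, was 0.0335 for Eif3k, 0.0327 for Eif3e and 0.00111 for Eif3s6-ps2. These were the 3 of 50 members under 0.05, which is 6% beside 20.9% of all genes in the authors' deposited table. Eif3s6-ps2 had no footprints in any library, so its deposited TE varied with RNA alone. Eif3c, the subunit with the highest footprint difference of the complex, had 135, 139.9, 169 and 227 RPKM (0.51 ± 0.29), above both WT libraries in both KO-labelled libraries, on RNA of 49.0, 51.2, 49.1 and 52.7 RPKM. Eif3l had the lowest, -0.71 ± 0.49, from 298, 122, 115 and 116 RPKM, where WT replicate 1 alone was high.

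Eif3b, an RNA-binding core subunit, had RNA of 78.9, 28.6, 29.4 and 34.2 RPKM, so that WT replicate 1 was 2.27 times the next library on the RPKM plus 1 scale. A library at least 2 times above each of the other 3 in RNA occurred in 0.0470% of tested genes, 3 genes, of which Eif3b was 1. Its footprints showed no such gap, with 195, 211, 187 and 227 RPKM, and its TE was 2.45 in WT replicate 1 against 7.17, 6.17 and 6.48 elsewhere. The RNA difference of -0.57 was not called (adjusted p = 0.235).

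The subunits were unequal in amount, in a similar order in each library. Summed over the 12, footprints were 1985, 2100.3, 1755 and 2102 RPKM and RNA was 708, 663, 762 and 779 RPKM. The subunit with the most footprints had 6.19, 7.42, 5.29 and 4.17 times those of the subunit with the fewest, and in RNA the ratio was 4.73, 4.43, 6.25 and 6.91. Eif3k was highest in footprints in the first 3 libraries and Eif3g in KO replicate 2, while Eif3h in the WT libraries and Eif3e in the KO-labelled libraries were lowest. Over the 12 subunits, log2 footprints correlated between replicates with r = 0.835 (WT) and 0.894 (KO-labelled) and log2 RNA with r = 0.856 and 0.982. Footprints and RNA of one library correlated over the subunits with r = 0.213, -0.00113, 0.270 and 0.0661, and over all 37 tested members with r = 0.654, 0.719, 0.648 and 0.614. These are descriptions across genes that share a library, depth and gene length, and the genes are not independent replicates. Eif3h is an example, with RNA of 108, 104, 123 and 146 RPKM, among the highest of the complex, and footprints of 57.2, 59.2, 78.0 and 82.9 RPKM. Eif3d, a subunit that can bind the cap of some mRNAs, was the reverse, with the lowest RNA of the 12, 21.1 to 23.8 RPKM, and footprints of 100.2 to 198 RPKM.

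**Figure D2:**
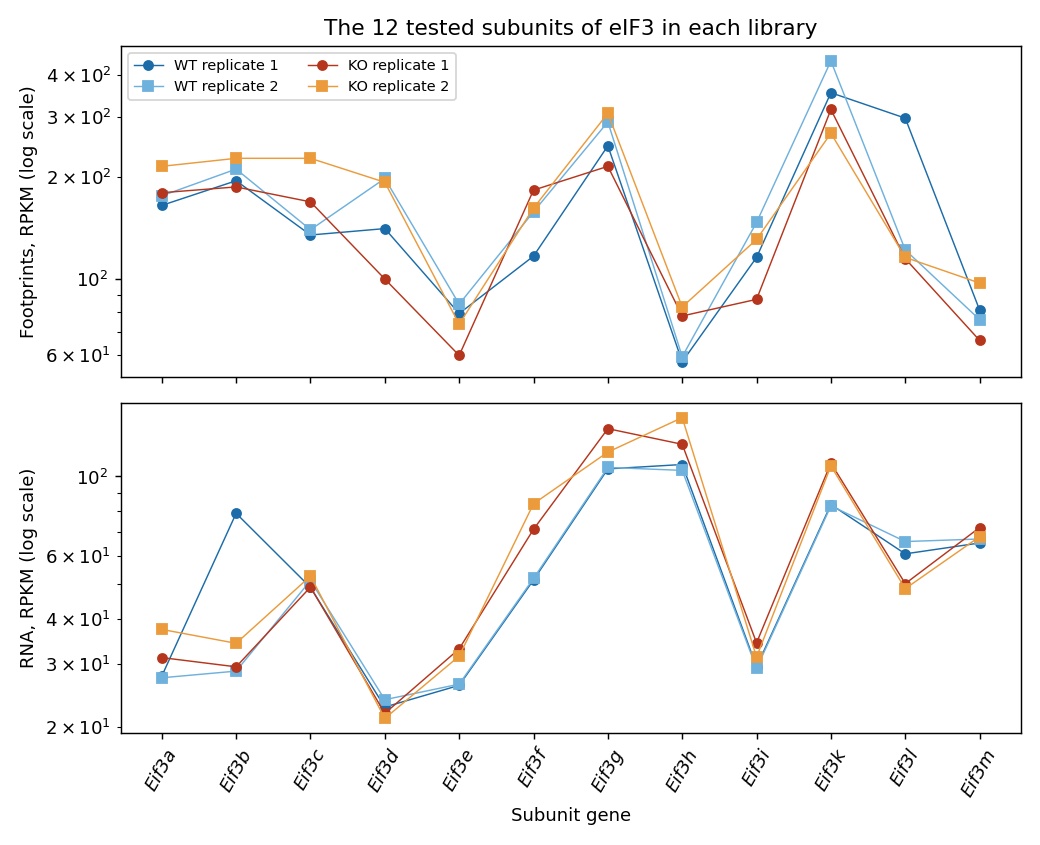
Footprints (top) and RNA (bottom) of the 12 tested eIF3 subunits in each of the 4 libraries, in RPKM on log axes, with lines that only join the points of a library. The libraries order the subunits alike within each panel, the panels differ from each other, and Eif3b in RNA (78.9 RPKM) and Eif3l in footprints (298 RPKM) are high in WT replicate 1 alone.

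The 3 other eIF3 rows had few or no footprints. Eif3j1 had 0, 0, 7.02 and 0 RPKM on RNA of 13.1, 12.2, 13.1 and 12.5 RPKM, and its near-identical copy Eif3j2 was at 0 in all 4 libraries on RNA of 0.370 to 0.456 RPKM. For these copies the count is uncertain. Eif3s6-ps2 was at 0 in footprints, and its RNA of 0.0791, 0.0832, 2.42 and 1.86 RPKM was higher in both KO-labelled libraries (1.53 ± 0.14, SE). It entered the fit of genes by RNA through the KO-labelled libraries alone. Reads of a pseudogene can also come from its parent gene, Eif3e, so this value is uncertain too.

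The cap-binding complex is built of eIF4E, which holds the cap, eIF4G, its scaffold, and eIF4A, an RNA helicase. Footprints of Eif4e were 765, 103, 222 and 71.1 RPKM, high in WT replicate 1 alone, on RNA of 31.8, 31.1, 32.7 and 26.1 RPKM. The footprint difference was -1.15, the lowest of all tested members, with an interval of -4.04 to 1.74, and the groups overlapped. Eif4g1 had footprints of 92.5, 91.4, 332 and 114 RPKM, where both KO-labelled libraries lay above both WT libraries and KO replicate 1 was 2.90 times the next on the RPKM plus 1 scale. Its footprint difference was 1.07, with an interval of -0.39 to 2.54. RNA of Eif4g1 moved the other way, 28.7, 30.1, 24.4 and 26.1 RPKM, and fell by 0.22 ± 0.07 (SE, adjusted p = 0.0326). That call was lost without either WT library (0.107 and 0.224) and without KO replicate 1 (0.0740).

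Eif4a1, the main eIF4A gene, had the second-highest RNA of all members and few footprints. Its RNA was 290.1, 297, 285 and 278 RPKM and its footprints were 28.2, 5.89, 10.6 and 11.3 RPKM, from 32, 5, 5 and 4 reads, which gives a TE of 0.10, 0.0231, 0.0405 and 0.0439. RNA did not pass the test in the fit of genes by RNA (-0.06 ± 0.06, adjusted p = 0.460). A median TE under 0.2 with a median RNA of at least 10 RPKM was found in 4 of 42 members, Eif4a1, Eif1, Eif3j1 and Eif4a-ps4, which is 9.52% beside 8.48% of all genes with that RNA. Eif4a-ps4 had 0 footprints in every library on RNA of 22.1 to 28.6 RPKM. With median footprints of 0, Eif3j1 and Eif4a-ps4 had to fall under 0.2, because the added 1 and the RNA set their median TE. Eif4a1, Eif1 and Eif3j1 have near-identical copies elsewhere in the genome, and how reads that match several copies were counted is not given, so their footprint levels are uncertain.

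**Figure D3:**
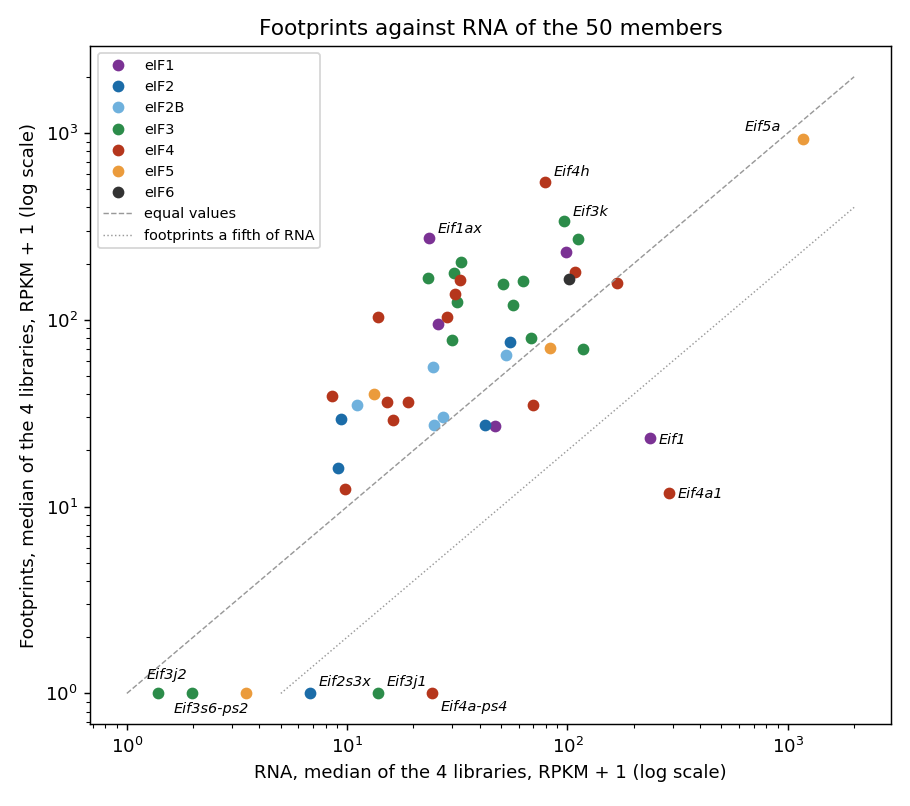
Median footprints against median RNA of the 4 libraries for all 50 members, in RPKM plus 1 on log axes, coloured by factor. Eif1 and Eif4a1 lie below the dotted line at which footprints are 0.2 of RNA, with median footprints of 22.2 and 10.9 RPKM on median RNA of 235 and 288 RPKM, and Eif3j1, Eif4a-ps4 and Eif2s3x lie below it with median footprints of 0.

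Among the partners and paralogues of eIF4A, Eif4a2 and Eif4b had large gaps between libraries. Eif4a2, the second eIF4A, had footprints of 39.8, 30.9, 1774 and 14.8 RPKM, from 43, 25, 795 and 5 reads. KO replicate 1 held 43.5 times the next library on the RPKM plus 1 scale, while KO replicate 2 was the lowest of all. Its RNA, 13.3, 12.0, 14.8 and 17.0 RPKM, showed no gap and rose by 0.30 ± 0.09 (SE, adjusted p = 0.0252). That RNA call was lost without WT replicate 2 (adjusted p = 0.174) and without KO replicate 2 (0.102). Eif4b, a cofactor of eIF4A, had footprints of 104, 103, 169 and 1378 RPKM, high in KO replicate 2, on RNA of 28.7, 29.2, 30.6 and 31.6 RPKM. The fitted footprint differences of Eif4a2 and Eif4b were both 2.21, the highest of the tested members, with intervals of -3.63 to 8.06 and -0.43 to 4.86.

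Eif4h, a further cofactor of eIF4A, fell in RNA and had lower footprints in both KO-labelled libraries. Its RNA was 86.8, 89.2, 68.5 and 69.5 RPKM (-0.35 ± 0.06, SE, adjusted p = 0.00239) and its footprints were 615, 616, 317 and 480.4 RPKM (-0.66, interval -1.47 to 0.16, adjusted p = 0.357). The RNA call of Eif4h held without each library in turn, with adjusted p of 0.00355 to 0.0460. Eif4a3, the eIF4A relative of the exon junction complex, had footprints of 134 to 192 RPKM and RNA of 163 to 193 RPKM and was not called.

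The inhibitors of cap binding, the eIF4E-binding proteins that mTOR releases from eIF4E, did not reach the footprint filter in 2 libraries and were not tested. Eif4ebp1 had footprints of 26.0, 65.1, 0 and 41.6 RPKM from 8, 15, 0 and 4 reads, and the 0 in KO replicate 1 allows up to 23.5 RPKM at 3 reads, a limit just under the 26.0 RPKM of WT replicate 1. Its RNA was 73.2, 75.5, 64.8 and 54.3 RPKM and fell by 0.32 ± 0.10 in the fit of genes by RNA (SE, adjusted p = 0.0393). Eif4ebp2 had footprints of 743, 38.1, 38.1 and 30.4 RPKM from 235, 9, 5 and 3 reads, high in WT replicate 1 alone. It had RNA of 7.83, 7.21, 7.17 and 8.02 RPKM. Its RNA was not called (adjusted p = 0.925).

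Among the other cap-side members, RNA of Eif4enif1, which encodes the eIF4E transporter, was 7.68, 7.28, 9.95 and 10.6 RPKM and rose by 0.41 ± 0.08 (SE, adjusted p = 0.00373). Its footprints were 14.3, 8.78, 18.6 and 7.42 RPKM, with overlapping groups. Eif4g2, an eIF4G relative that lacks the eIF4E-binding part, had RNA of 118, 129, 96.4 and 95.2 RPKM, which fell by 0.37 ± 0.07 (adjusted p = 0.00338, and 0.0675 without WT replicate 2). Its footprints were 195, 165, 3151 and 142 RPKM, high in KO replicate 1 alone and otherwise lowest in KO replicate 2. Eif4g3, the third eIF4G gene, rose in RNA by 0.30 ± 0.10 (adjusted p = 0.0398), from 17.2 and 15.9 to 18.6 and 22.7 RPKM, a call lost without either WT library (0.0748 and 0.193) or KO replicate 2 (0.145), and its footprints were even, 31.4 to 38.1 RPKM. Eif4e2, a cap-binding relative of eIF4E that represses, had 91.5 to 136 RPKM of footprints and was not called. RNA of Eif4e3, another eIF4E relative, was 10.4, 12.0, 18.2 and 18.6 RPKM and rose by 0.67 ± 0.09 in the fit of genes by RNA (adjusted p = 0.00291).

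Of the factors that act at the start codon and after it, Eif5a had the most RNA of all members in every library and the highest median of footprints, 933 RPKM. It encodes the hypusine-bearing factor that also helps elongation. Its RNA was 1153, 1183, 1327 and 1056 RPKM and its footprints were 739.5, 1046, 16039.6 and 821 RPKM, from 300, 317, 2698 and 104 reads. In KO replicate 1 it was the gene with the highest footprint RPKM of the whole table and took 0.741% of the reads (95% Wilson interval 0.714 to 0.769), and in the other libraries it ranked 156, 113 and 120. The footprint difference of 2.04 had an interval of -1.68 to 5.77, and RNA did not pass the test (0.02 ± 0.12, adjusted p = 0.899), and it was called in opposite directions with a KO-labelled library left out, lower without KO replicate 1 (-0.15, adjusted p = 0.0296) and higher without KO replicate 2 (0.18, adjusted p = 0.0138). Eif5a2, its paralogue, had footprints of 0, 3.32, 0 and 0 RPKM and RNA of 0.437, 0.745, 4.41 and 4.19 RPKM, with a difference of 1.74 ± 0.14 (SE) in the fit of genes by RNA, into which it came through the KO-labelled libraries alone.

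Eif5, the GTPase activator of eIF2, had footprints of 67.9, 70.8, 172 and 45.2 RPKM and RNA of 86.3, 88.1, 79.1 and 75.1 RPKM. The RNA fell by 0.18 ± 0.06 (SE, limma adjusted p = 0.0478). That call was lost without either WT library (differences of -0.19 and -0.16) or KO replicate 2 (-0.14). Centring each library on its median, no filter on footprints and the fit of genes by RNA ended it too. After quantile normalization it held (adjusted p = 0.0134). Eif5b, the GTPase of subunit joining, had footprints of 38.1, 39.7, 74.5 and 36.0 RPKM and RNA of 10.8, 11.1, 13.3 and 17.4 RPKM. Its RNA rose by 0.44 ± 0.12 (adjusted p = 0.0151, and 0.0603 without WT replicate 1). Eif6, the anti-association factor, had footprints of 155, 181, 122 and 172 RPKM and RNA of 103, 105, 97.4 and 81.9 RPKM, and was not called in RNA (-0.22 ± 0.09, adjusted p = 0.0657, and 0.0171 after quantile normalization) or in footprints (-0.20 ± 0.31, adjusted p = 0.760).

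**Figure D4:**
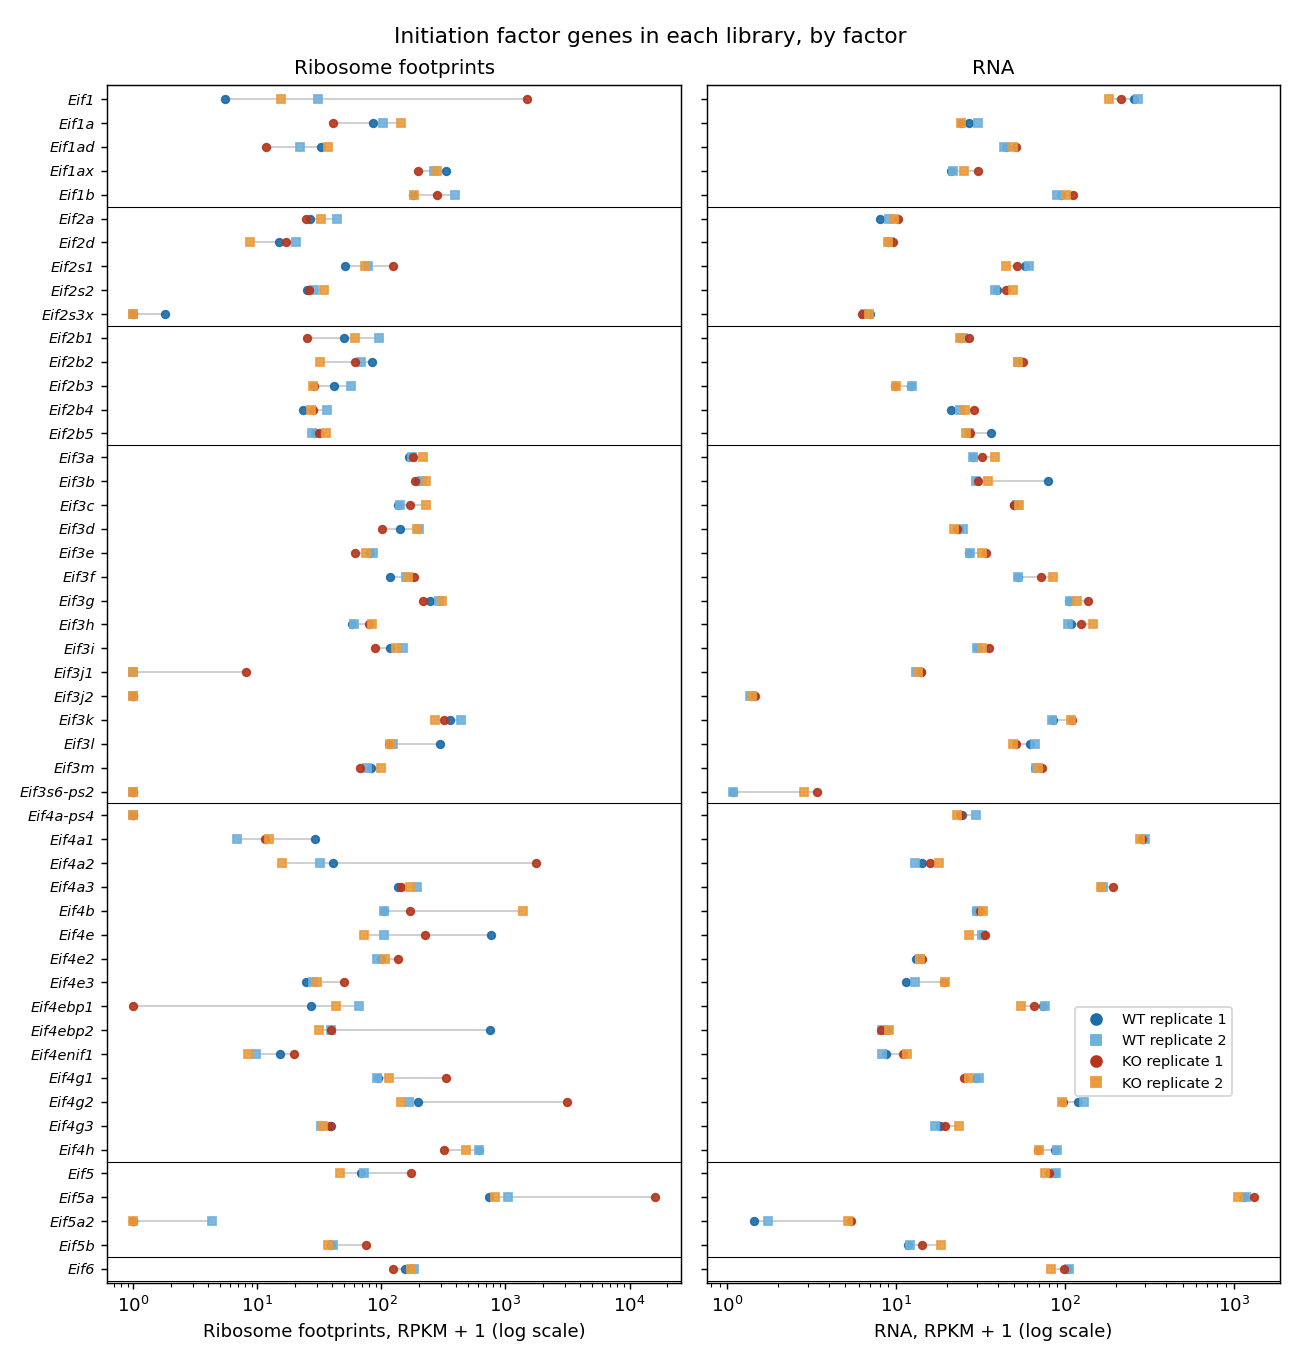
Footprints (left) and RNA (right) of all 50 members in each library, in RPKM plus 1 on log axes, grouped by factor, with a grey line from the lowest to the highest library. In footprints 1 library stands far from the others in several genes, such as Eif5a at 16039.6 RPKM in KO replicate 1, while in RNA the 4 libraries lie close together for most members.

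High footprints in a single library recurred among these genes. A library at least 4 times above each of the other 3 on the RPKM plus 1 scale was found in 4 of the 37 tested members, 10.8%, beside 4.26% of all tested genes: Eif4a2, Eif4g2 and Eif5a in KO replicate 1 and Eif4b in KO replicate 2. Over all tested genes it was found 168 times in KO replicate 1, 50 times in KO replicate 2, 54 times in WT replicate 1 and 0 times in WT replicate 2. Of the untested members Eif1 and Eif3j1 met it in KO replicate 1, Eif4ebp2 in WT replicate 1 and Eif5a2 in WT replicate 2, the last from almost no reads. In RNA of these genes no library stood at least 2 times above the others. Which positions in each gene hold these reads is not in the values used here.

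The summed reads of the members differed with and without these genes. The 47 members with recovered reads, of which 3 were at 0 in every library, took 0.770%, 0.735%, 2.65% and 0.957% of all footprint reads (95% Wilson intervals 0.752 to 0.788, 0.715 to 0.756, 2.60 to 2.70 and 0.922 to 0.995). Without the 6 genes among them that were at least 4 times above in 1 library, the other 41 took 0.629%, 0.614%, 0.679% and 0.623% (0.613 to 0.646, 0.596 to 0.634, 0.653 to 0.706 and 0.594 to 0.653). The interval of KO replicate 1 lay above those of both WT libraries, and that of KO replicate 2 overlapped them. The 41 still held genes with 1 high library under the limit of 4 times. Eif4g1, high in KO replicate 1, took 0.0444%, 0.0439%, 0.159% and 0.0547%. Eif4e, high in WT replicate 1, took 0.0510%, 0.00686%, 0.0148% and 0.00474%. How far such genes set the difference was not tested. Intervals and limits of 3 reads cover counting error only.

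The calls differed with the KO-labelled library used. Without KO replicate 2, limma called 5 members in footprints, all higher, which is 13.5% beside 17.1% of all tested genes: Eif4a2 (5.62 on the log2 scale, adjusted p = 0.00838), Eif4g2 (4.13, 0.00839), Eif5a (4.19, 0.0104), Eif4g1 (1.84, 0.0186) and Eif5 (1.30, 0.0357). In TE it called Eif4a2, Eif4g2, Eif5a and Eif4g1, 10.8% beside 10.9%, by up to 5.41 (Eif4a2, adjusted p = 0.0133). Without KO replicate 1 it called Eif4b alone of the members, by 3.72 in footprints (adjusted p = 0.0110) and 3.60 in TE (0.0178), which is 2.70% beside 5.20% of all tested genes in footprints and 2.32% in TE. No member was called without KO replicate 1 and without KO replicate 2 both, and in these fits the lone KO-labelled library is assumed to vary like the WT libraries. With WT replicate 1 or WT replicate 2 left out, 0 members and 0 of all tested genes were called in footprints or TE, with 389 and 419 genes at an unadjusted p under 0.05 in footprints and 243 and 256 in TE.

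The neighbouring steps of translation also showed RNA differences in both directions and no footprint calls. Of 49 such genes in the table, for elongation, termination and recycling, poly(A)- and cap-proximal proteins and regulators of initiation, 40 were tested. In footprints 0 of 40 were called and in TE 0 of 40, while in RNA 14 were higher and 13 lower, 35% and 32.5% beside the 33.1% and 27.7% of all tested genes. The RNA counts were 3 higher and 2 lower of 8 elongation genes, 3 and 2 of 7 termination genes, 4 and 4 of 11 cap-proximal genes and 4 and 5 of 14 regulators, with Gspt2, described next, among the higher termination genes. The highest footprint differences were those of Gspt2, a termination GTPase, with 0.580, 5.43, 19.6 and 26.0 RPKM from 1, 7, 14 and 14 reads, which passed the filter through the KO-labelled libraries alone (2.89 ± 0.76, SE), and of Pabpc1, the poly(A)-binding protein that contacts eIF4G, with 186, 228, 3658 and 439.7 RPKM (2.62 ± 1.03, adjusted p = 0.286). RNA of Pabpc1 was 56.7, 60.7, 104 and 117 RPKM and rose by 0.90 (adjusted p = 8.00e-05). The lowest footprint differences were those of Mknk2, a kinase of eIF4E, with 50.7, 33.9, 9.87 and 18.3 RPKM (-1.55 ± 0.45, adjusted p = 0.193) and of Eef1akmt1, a methyltransferase of eEF1A, with 112, 104, 36.8 and 43.4 RPKM (-1.41 ± 0.28, adjusted p = 0.121). In both genes the KO-labelled libraries lay below the WT libraries without overlap, which the choice of the lowest differences favours. The groups did not overlap in footprints in 52.5% of all tested genes.

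Of 4 members listed as known TOP mRNAs, Eif3e, Eif3f and Eif3h rose in RNA, 3 of 4 beside 33.1% of all tested genes. Eif4b was not called (0.10 ± 0.07, SE, limma adjusted p = 0.213). The list was chosen with earlier results of these data known, and Eif2s3x, whose start has a pyrimidine run, was not on it. Of the listed genes only Eif3f had such a run at its annotated start, and the others had none there or no entry. The share of 3 of 4 is a description and no test. The calls of Eif3e and Eif3h were lost without WT replicate 1 (adjusted p = 0.0668 and 0.0595) and without WT replicate 2 (0.0617 and 0.0994), and that of Eif3h after quantile normalization (0.0570). In footprints and in TE 0 of the 4 were called, with a median TE difference of -0.058 beside -0.15 for all tested genes. Eif3e, whose RNA was 26.1, 26.3, 33.0 and 31.5 RPKM, had footprints of 79.3, 84.5, 59.7 and 73.8 RPKM, lower in both KO-labelled libraries, with a TE of 2.97, 3.13, 1.78 and 2.30. The TE difference was -0.59, with an interval of -1.43 to 0.25. Of the 2 members with a pyrimidine run printed above, Eif3f had a TE of 2.25, 3.00, 2.54 and 1.92, whose groups overlapped. RNA of Eif2s3x, the other, was not called in the fit of genes by RNA (-0.04 ± 0.10, SE, adjusted p = 0.730).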

How the data were processed

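Footprints and input RNA of 4 libraries were analysed from a table that the authors deposited. The submitters' processing notes list CASAVA, HISAT2 2.1.0, featureCounts and DESeq2 without saying what each did, and the build hg38, which is human while the samples and gene names are mouse. The annotation is not given. The deposited footprint values behave as RPKM with 1 added by the authors, which was read from the values. The deposited TE is the ratio of this to an input RNA value with 1 added, and RNA was computed as footprint value over TE, minus 1. The deposited p-value, headed as adjusted, matched a one-sided, equal-variance, unadjusted test on TE within 1e-06 for 16250 genes.

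The RPKM steps gave back whole footprint reads for 100% of the 10536 genes that had footprints in 2 libraries or more, within 0.002 reads. On simulated data of 10193 genes, 94.8% returned exactly and 5.2% differed by the same factor in every library, so that ratios hold. A fractional gene length was multiplied to a whole one in 446 genes and remained in 10. CPM for the filter comes from these reads, so a gene whose reads are too small by such a factor can fall below it.

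With limma 3.58.1 (R 4.3.3), log2(RPKM + 1), which understates changes of low genes, was fitted with a trend of variance on the mean and group as the only term, two-sided, Benjamini-Hochberg adjusted over the 6384 genes tested, at a threshold of 0.05. The count test that the recovered reads allow, limma-voom, is an alternative and called 62 genes in footprints against 67. TE was fitted per library because input reads were not recovered. Python 3.11.15 did the rest. The series calls the libraries biological replicates, and p-values measure only the spread between these libraries. With 2 libraries against 2 an exact permutation test cannot reach the threshold, and none was run.

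The members and all lists were chosen with earlier results of these data known. Values by library are given for the eIF2 subunits, the cap-binding side, Eif5a and Eif6, for every member called in footprints or TE, for the highest and lowest of each factor in footprints and in RNA, and, outside this rule, for members chosen after their values were seen. Of the genes outside the family, the 2 highest and 2 lowest in footprints are named. Deviations of same-numbered libraries correlated with r = 0.0224 in footprints, -0.335 in RNA and 0.00823 in TE. In RNA the sign was negative, so same-numbered libraries tended to deviate in opposite directions. mRNA starts are those of RefSeq on GRCm38.p6, matched by symbol for 38 of 50 members.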

Additional observations from a re-analysis of the deposited data

How the results depend on the processing

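The alternatives changed the pseudocount, the filter, the scaling, the replicate block and the libraries used. The 67 genes called in footprints became 109 with a pseudocount of 5 RPKM, 0 with no filter (1667 at an unadjusted p under 0.05), 120 with a filter of 50 CPM, 32 with the replicate block and 0 to 1094 with 1 library left out; members called stayed at 0 except with a library left out, 0 to 5. The 3881 genes called in RNA became 6747 with no filter, 2452 with the filter of 50 and 6497 among genes with RNA of at least 1 RPKM, where the number tested differs; members called were 8 to 20 with a library left out and 15 with the replicate block, all 15 among the 21. In TE, 0 genes became 1 with a pseudocount of 5 RPKM, 1 with the filter of 50 and 0 to 698 with a library left out, and members 0 to 4. RNA of Eif5a, 0.02, was -0.15 to 0.18 with a library left out, and reversed without KO replicate 1. The replicate numbers are names only; crossing them called 133 genes in footprints, 4390 in RNA and 2 in TE, and 0, 25 and 0 members. Of 477 comparisons of single members with an alternative in each measure, 392 in RNA, 441 in footprints and 443 in TE kept their direction and side of the threshold, and 67 changed sign without a call on either side. A library at least 4 times above the others was found in 4 tested members, in 5 at a limit of 3 times, in 4 at 8 times, and in 8 of all members with no filter; these limits and the crossed pairing were chosen after seeing the data. The cause of these changes was not tested, beyond the different numbers of genes tested or libraries used. Depth limits the footprints, with 3 reads or fewer behind some members in the KO-labelled libraries.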
